A study of Bos taurus with 9 samples.

Results

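The genes described here are 10 transcription factors that mark or shape the stromal (mesenchymal) lineage of the uterus, namely HAND2, FOXO1, NR2F2, GATA2, TWIST1, TWIST2, TCF21, EMX2, WT1 and SOX9. They were chosen by name, as regulators bearing on the identity of the cells, and all 10 were found among the 17162 genes of the FPKM table. RNA was sequenced from bovine endometrial cells (BEND), wild type in genotype, which were grown from abattoir uteri of Holstein cows and are labelled as primary epithelial cells. The 9 libraries were 3 of untreated cells (CON), 3 of cells given 1 nM estradiol (E2) and 100 nM progesterone (P4) (GA), and 3 of cells given E2, P4 and 100 ng/mL interferon tau (IFNT) (GB), where the methods place 12 h of IFNT after 12 h of hormones. The cells of all groups were grown in serum-containing medium, had been passaged several times before use, and were replicated as dishes. The p-values therefore measure the spread between dishes. The methods describe fresh medium for the treated groups and state neither a medium change nor a vehicle for CON. Either cannot be told apart from the treatment in the comparisons with CON. When the CON and GA dishes were collected is not stated separately. A difference in culture time therefore cannot be told apart from the treatment in any of the 3 comparisons.

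The endometrium is built of an epithelium that lines the lumen and the glands and of a stroma of fibroblast-like cells beneath it, and each compartment is held by its own set of transcription factors. In the stroma, HAND2 is induced by progesterone and restrains the growth factors that the stroma sends to the epithelium, NR2F2 acts downstream of hedgehog ligand from the epithelium, GATA2 works with the progesterone receptor, and FOXO1 drives the decidual program of stromal cells. TWIST1, TWIST2 and TCF21 are general mesenchymal factors, EMX2 and WT1 belong to the development of the urogenital tract, and SOX9, the exception in this set, is best known in the uterus for the glandular epithelium.

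Levels are given as the FPKM that the authors deposited, a count of sequenced fragments scaled by the length of the gene and the size of the library, which allows genes to be compared with each other. Differences between groups were tested with limma on log2(FPKM + 0.5), over the 12578 genes whose mean FPKM reached 0.5, and p-values were adjusted over all of them by the Benjamini-Hochberg method. All 10 factors passed that filter. A factor was taken to have risen or fallen when its adjusted p was under 0.05, and a DEG had in addition |log2FC| above 1. A log2FC is on the log2(FPKM + 0.5) scale throughout, on which the change of a gene with low FPKM comes out too small. With bulk RNA, fewer cells of a type and less RNA per cell cannot be told apart.

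Stromal factors were abundant in these cells and the factors that define an epithelium were not. In CON, TWIST2 stood highest at 122 ± 4.43 FPKM (SD, n = 3), followed by GATA2 at 104 ± 2.36, NR2F2 at 92.0 ± 2.61 and HAND2 at 70.1 ± 6.15. A middle tier was formed by WT1 at 52.7 ± 2.25 FPKM, TWIST1 at 42.1 ± 11.3 and EMX2 at 38.5 ± 1.15. FOXO1 (8.81 ± 0.845 FPKM), SOX9 (6.75 ± 0.529) and TCF21 (2.99 ± 1.06) were the lowest. By mean FPKM over the 9 libraries, 7 of the 10 lay above the 70th percentile of all genes in the table, and FOXO1, SOX9 and TCF21 lay at the 47.3, 42.0 and 37.5 percentile. In the CON order, the libraries of neighbouring factors did not overlap except for WT1 with TWIST1 and TWIST1 with EMX2. In GA and in GB the order of the upper and middle tiers was not resolved in several places. In GA the libraries of TWIST2 overlapped those of GATA2, those of NR2F2 overlapped those of HAND2, and those of WT1 overlapped those of EMX2. In GB the libraries of GATA2 overlapped those of TWIST2, those of TWIST2 overlapped those of NR2F2, and TWIST1, EMX2 and WT1 overlapped in sequence.

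**Figure D1:**
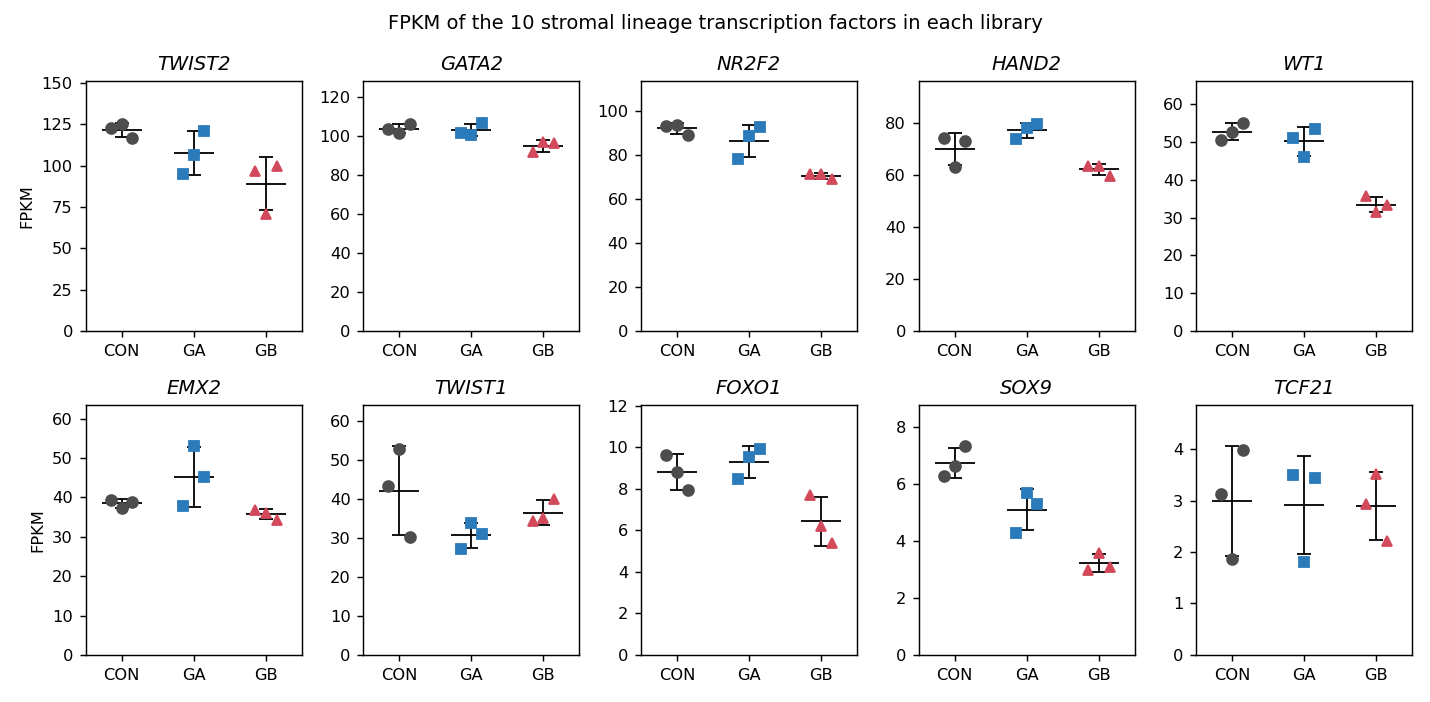
FPKM of each factor (vertical axes, linear, each starting at 0) in the 3 CON (circles), 3 GA (squares) and 3 GB (triangles) libraries, with the group mean and SD as bars. The 3 GB libraries of NR2F2, WT1, FOXO1 and SOX9 lie below all CON and GA libraries, while the groups of TCF21 overlap.

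The label of the cells was checked against marker genes. All 19 fibroblast markers were above the filter, with VIM (vimentin) the most abundant at a mean of 8540 FPKM over the 9 libraries, and the median of their summed FPKM was 22890 for the CON libraries, 22820 for those of GA and 20500 for those of GB. Of the 14 epithelial markers, 12 were under the filter, among them the keratins KRT7, KRT8, KRT18 and KRT19 and the junction proteins CDH1, CLDN3, CLDN4 and CLDN7. KRT18, the keratin whose protein was stained to identify the cultures, was at 0.250, 0.410 and 0.160 FPKM in CON, 0.480, 0.230 and 0.670 in GA and 0.160, 0.640 and 0.250 in GB. The paper reports that this stain, which measures protein and not RNA, was positive in the cells. CDH1 (E-cadherin) did not exceed 0.140 FPKM in any library. The 14 epithelial markers summed to a median of 6.58 FPKM in CON, most of it CDH3, and the RNA values therefore went against the epithelial label.

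Of regulators of epithelial fate, transcription factors and the splicing regulators ESRP1 and ESRP2, 18 were listed, 5 (GRHL3, EHF, ELF5, OVOL2 and TP63) were not in the table, and 11 were under the filter, including FOXA2, the factor of uterine glands, and GRHL2 and ELF3. KLF5, which is also found outside epithelia, was the highest at 18.8 FPKM over the 9 libraries, and PAX8 was at 4.62 FPKM in CON. Neither passed the test in any of the 3 comparisons. Markers of other cell types were mixed. The smooth muscle and pericyte list was high, led by TAGLN at 4690 FPKM, with 8 of 9 genes above the filter, MYH11 at 2.80 FPKM in CON and RGS5 under the filter. Endothelial markers summed to a median of 3.70 FPKM in CON, and 6 of 8, among them PECAM1, VWF and KDR, were under the filter. Of the immune markers 5 of 8 were under the filter, with CD3D listed at 0 in 8 libraries, and CD14 was the most abundant at 20.2 FPKM. Of the mesothelial list, which bears on WT1 because mesothelium expresses that factor, UPK1B was high at 81.0 FPKM, MSLN was at 3.28 FPKM in CON and LRRN4 was under the filter.

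**Figure D2:**
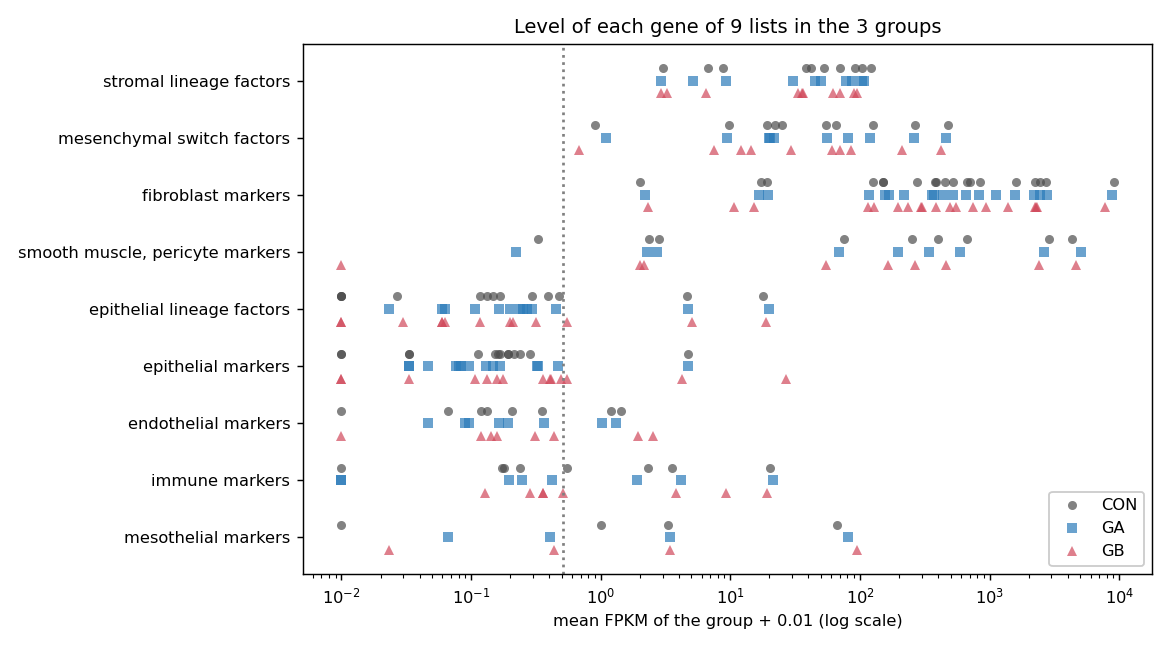
Mean FPKM of each group plus 0.01 (horizontal axis, log scale) for each gene of 9 lists in CON (circles), GA (squares) and GB (triangles). The dotted line marks an FPKM of 0.5. All 10 stromal lineage factors lie to its right, and 12 of 14 epithelial markers and 11 of the 13 epithelial lineage regulators in the table are under that value in their mean over the 9 libraries.

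In GB, which had received IFNT, most of these factors were lower. Against CON, 6 of the 10 fell, 0 rose and 4 did not pass, where 17.3% of all tested genes fell, 16.2% rose and 33.5% changed in either direction. The median log2FC of the 10 was −0.28, beside −0.016 over all tested genes, and all 10 estimates were below 0, beside 52.6% of all tested genes. None of the 10 was a DEG by the fold threshold, as were 4.01% of the tested genes. Against GA, 6 again fell and 4 did not pass, where 19.2% of all tested genes fell, 9.87% rose and 29.0% changed in either direction, the median log2FC was −0.30, beside −0.075 over all tested genes, and 8 of the 10 estimates were below 0, beside 62.3% of all tested genes. None was a DEG against GA either, as were 3.64% of the tested genes. Both comparisons use the same GB libraries. FOXO1, NR2F2, WT1 and SOX9 were under the threshold in both, GATA2 and TWIST2 only against CON, and HAND2 and EMX2 only against GA, with no test of whether the 2 comparisons differ for these 4 factors.

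**Figure D3:**
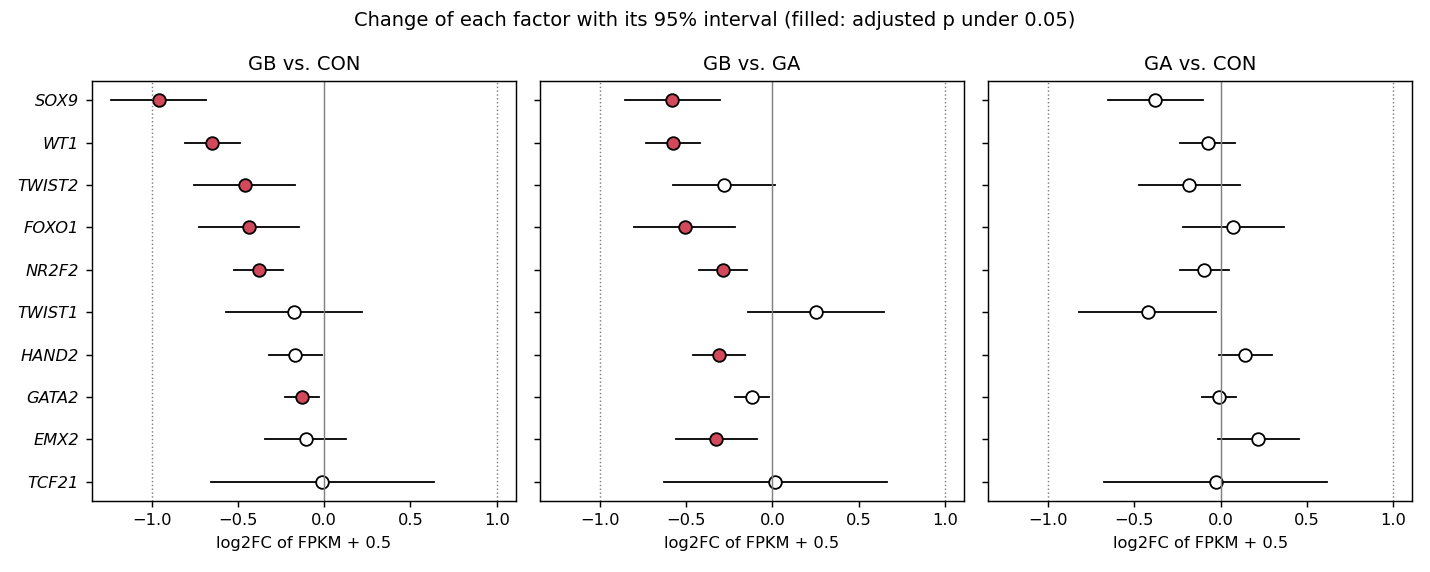
Log2FC of each factor (horizontal axis, on the log2(FPKM + 0.5) scale) with its 95% interval from limma in GB vs. CON, GB vs. GA and GA vs. CON, with dotted lines at the fold threshold of 1. Filled points had an adjusted p under 0.05, which were 6 factors in each comparison with GB and 0 in GA vs. CON.

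More calls were lost in other settings against CON than against GA. The GC content of the reads, taken from the sequencing statistics of the study, was higher in each CON library than in any treated one, and with it as a covariate only WT1 (adjusted p = 0.0208) and SOX9 (adjusted p = 0.0271) stayed under the threshold against CON, and 0 of the 10 with the replicate number added. The SE of each factor grew with the covariate while most folds did not shrink, since the log2FC was −0.66 for WT1, −1.08 for SOX9, −0.40 for NR2F2, −0.51 for TWIST2 and −0.23 for GATA2, and it was smaller for FOXO1 (−0.29). With the replicate number added as well, WT1 was at −0.42, TWIST2 at −0.12 and FOXO1 at −0.42. Against GA, 6 stayed with the covariate, GATA2 in place of EMX2. Without CON1 the number against CON was 3, since FOXO1, TWIST2 and GATA2 were lost.

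SOX9, an HMG-box factor, had the lowest log2FC of the 10 in GB vs. CON. It was at 6.29, 6.64 and 7.33 FPKM in CON, at 4.30, 5.71 and 5.30 in GA and at 3.0, 3.60 and 3.10 in GB. The 3 groups did not overlap, with GA between the other two. The log2FC was −0.96 (SE 0.12, adjusted p = 0.000367, limma) in GB vs. CON and −0.58 (SE 0.12, adjusted p = 0.00695, limma) in GB vs. GA. In GA vs. CON it was −0.38 (SE 0.12), with an unadjusted p = 0.0127 and an adjusted p = 0.156. The fall against CON sat at the edge of the fold threshold and crossed it with a pseudocount of 0.1 (−1.04), without CON1 (−1.0) and without GB2 (−1.03). Of all tested genes, 1.54% had a lower log2FC in GB vs. CON.

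WT1, a zinc-finger factor of urogenital mesenchyme and endometrial stroma, fell from 50.5, 52.5 and 55.0 FPKM in CON and 51.1, 45.9 and 53.4 in GA to 35.6, 31.5 and 33.2 in GB. CON and GA overlapped, and the GB libraries lay well below both. The mean of GB was 0.635 times that of CON and 0.667 times that of GA. This gave a log2FC of −0.65 (SE 0.071, adjusted p = 0.000129, limma) against CON and −0.58 (SE 0.071, adjusted p = 0.000333, limma) against GA. The WT1 fall stayed under the threshold with each library left out. The mesothelial marker UPK1B moved the other way, from 63.0, 70.2 and 67.5 FPKM in CON and 78.8, 77.0 and 87.4 in GA to 91.7, 95.8 and 97.4 in GB. Its log2FC was 0.50 against CON (adjusted p = 0.000283, limma) and 0.23 against GA (adjusted p = 0.0213, limma), the latter call being lost without GA1, GA2, GB2 or GB3 (adjusted p up to 0.0784). The median summed FPKM of the mesothelial list was 71.5 for the CON libraries, 83.0 for those of GA and 99.5 for those of GB, nearly all of it UPK1B. The rest of the list did not follow UPK1B. MSLN did not pass in any comparison, LRRN4 was under the filter and CALB2 was not in the table. UPK3B had a mean of 0.997 FPKM in CON, 0.393 in GA and 0.423 in GB. Its log2FC was −0.71 against CON (adjusted p = 0.0653, limma) and 0.02 against GA. The part of mesothelial cells in the WT1 values was not tested.

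NR2F2, also known as COUP-TFII, is an orphan nuclear receptor of the uterine stroma. It was at 93.3, 93.7 and 89.0 FPKM in CON, 78.2, 88.5 and 92.5 in GA and 71.2, 71.5 and 69.1 in GB. The GB libraries were tightly grouped below all the others. The log2FC was −0.38 (SE 0.062, adjusted p = 0.00157, limma) against CON and −0.29 (SE 0.062, adjusted p = 0.00803, limma) against GA, where it held with each library left out.

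FOXO1, a forkhead factor that is kept out of the nucleus by AKT signaling, was low and fell further. Its values were 9.65, 8.83 and 7.96 FPKM in CON, 8.46, 9.52 and 9.91 in GA and 7.70, 6.19 and 5.41 in GB. The GB library with the highest value, GB1, came close to the lowest CON library, CON3. The log2FC was −0.44 (SE 0.13, adjusted p = 0.0283, limma) against CON and −0.51 (SE 0.13, adjusted p = 0.0163, limma) against GA. The call against CON was lost without CON1 (adjusted p = 0.0886), CON2 (adjusted p = 0.0649), GB2 (adjusted p = 0.0776) or GB3 (adjusted p = 0.0915), and the call against GA without GA2 (adjusted p = 0.0516), GA3 (adjusted p = 0.0604) or GB3 (adjusted p = 0.0531).

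HAND2, a basic helix-loop-helix (bHLH) factor, was at 74.1, 63.0 and 73.1 FPKM in CON, 74.1, 78.1 and 79.6 in GA and 63.5, 63.5 and 59.6 in GB. GB lay below all GA libraries, but CON2 fell within the range of GB. Against GA the log2FC was −0.31 (SE 0.067, adjusted p = 0.00795, limma), a call kept with each library left out. Against CON it was −0.17 (adjusted p = 0.0860, limma), and it passed without CON2 (−0.24, adjusted p = 0.00813) and after quantile normalization (−0.22, adjusted p = 0.0184). With the GC covariate the HAND2 estimate was −0.37 (SE 0.11, adjusted p = 0.0624), and −0.46 (SE 0.14, adjusted p = 0.145) with the replicate number added. In GA vs. CON the HAND2 log2FC was 0.14, with a 95% interval of −0.009 to 0.295, which includes 0.

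GATA2, a zinc-finger partner of the progesterone receptor, had the smallest fall among the factors that passed. It was at 103, 102 and 106 FPKM in CON, 102, 101 and 107 in GA and 91.6, 96.9 and 96.5 in GB. GB did not overlap with either group, yet the shift was small, with a log2FC of −0.13 (SE 0.044, adjusted p = 0.0496, limma) against CON and −0.12 (adjusted p = 0.0720, limma) against GA. The call against CON held in only 1 of 9 fits with a library left out, that without CON2, and was lost in the others with adjusted p from 0.0511 to 0.156.

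TWIST2 and TWIST1 are closely related bHLH factors of mesenchyme, and both were well expressed. TWIST2 was at 123, 125 and 117 FPKM in CON, 94.9, 107 and 121 in GA and 97.0, 70.7 and 99.7 in GB. GB was below CON and overlapped with GA, and GB2 was the lowest library. The log2FC against CON was −0.46 (SE 0.13, adjusted p = 0.0236, limma), lost without CON1 (adjusted p = 0.0584) or CON2 (adjusted p = 0.0637), and against GA it was −0.28 (adjusted p = 0.143, limma). TWIST1 was at 43.3, 52.8 and 30.3 FPKM in CON, 27.2, 33.8 and 30.9 in GA and 34.4, 35.1 and 40.1 in GB. The CON libraries of TWIST1 spread over a range that took in those of GB, while GB lay just above GA. No TWIST1 comparison passed in the fit of all 9 libraries, and the 95% interval of its log2FC was −0.57 to 0.22 in GB vs. CON, −0.14 to 0.65 in GB vs. GA and −0.82 to −0.029 in GA vs. CON (adjusted p = 0.234, limma). Without CON3 the TWIST1 log2FC in GB vs. CON was −0.39 (adjusted p = 0.0396). Within a library, the ratio of TWIST2 to TWIST1 was 2.83, 2.37 and 3.85 in CON, 3.49, 3.16 and 3.92 in GA and 2.82, 2.02 and 2.49 in GB, so GB lay below GA and overlapped with CON. The sequences of the pair are similar, and RSEM, which made the counts, assigns reads shared by similar genes by estimation, so the division between them is uncertain.

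EMX2, a homeobox factor of the urogenital tract, was at 39.4, 37.2 and 38.8 FPKM in CON, 37.8, 53.0 and 45.1 in GA and 36.8, 36.2 and 34.3 in GB. GB lay below both groups, and GA2 was the highest library. The log2FC against GA was −0.32 (SE 0.10, adjusted p = 0.0433, limma), a call that held with GA1 left out and was lost with any other single library left out (adjusted p from 0.0513 to 0.119). This call held in only 4 of the 12 other settings. With median-of-ratios scaling the log2FC was −0.25 (adjusted p = 0.103, limma). Against CON the EMX2 log2FC was −0.11, with a 95% interval of −0.34 to 0.13. TCF21, a bHLH factor of fibroblast progenitors, was at 3.12, 1.87 and 3.98 FPKM in CON, 3.49, 1.81 and 3.43 in GA and 2.94, 3.52 and 2.22 in GB. The 3 groups of TCF21 overlapped fully. With an SE of 0.29 in each comparison its log2FC of −0.01 in GB vs. CON had a 95% interval of −0.66 to 0.64, so a change of moderate size was not detectable at this level and number of libraries.

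With E2 and P4 and no IFNT, none of these factors passed the test. In GA vs. CON 0 of the 10 had an adjusted p under 0.05 with limma, while 0.453% of all tested genes did (0.246% higher and 0.207% lower) and 0.0716% were DEGs. An unadjusted p under 0.05 was found for SOX9 and TWIST1, both lower in GA. The median log2FC of the 10 was −0.05, beside 0.061 over all tested genes. SOX9 was also the only factor whose GA and CON libraries did not overlap, and 6.13% of all tested genes had GA apart below CON and 18.6% apart above it. In GB vs. CON the groups were apart for 7 factors, all lower in GB, and in GB vs. GA for 7 lower and 1 higher (TWIST1), where 23.9% and 31.0% of all tested genes had GB apart below the other group and 22.2% and 15.7% apart above it.

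The families from which these factors come were represented unevenly. HAND1 was at 10.4 FPKM in CON, far below HAND2. GATA2 was nearly the only GATA gene, with GATA6 at 1.51 FPKM in CON, GATA3, GATA4 and GATA5 under the filter and GATA1 not in the table. EMX1, SOX8 and SOX10 were under the filter as well, so that EMX2 and SOX9 were the leading genes of their groups. NR2F1, the closest relative of NR2F2, was at 116 FPKM in CON, and in each library it exceeded NR2F2, with ratios of NR2F2 to NR2F1 from 0.583 to 0.924. In GB vs. CON the log2FC of NR2F1 was −0.09 (adjusted p = 0.424, limma), beside the fall of NR2F2. NR2F6, the third gene of the family, fell from 18.2, 18.2 and 15.9 FPKM in CON to 14.0, 12.2 and 14.2 in GB (log2FC −0.36, adjusted p = 0.0318, limma), a call lost with the GC covariate (log2FC −0.33 with SE 0.22, beside an SE of 0.11 without it, adjusted p = 0.400) or without CON1, CON2, GB1 or GB2 (adjusted p up to 0.106). FOXO3 exceeded FOXO1 in each library, by 1.35 to 2.11 times, and had a log2FC of −0.13 (adjusted p = 0.287, limma) in GB vs. CON. FOXO4, lower than both, fell from 3.14, 3.56 and 2.76 FPKM in CON to 1.88, 1.85 and 1.79 in GB, with a log2FC of −0.64 (SE 0.12, adjusted p = 0.00322, limma), a call lost with the GC covariate (adjusted p = 0.336). MSC (musculin), a relative of TCF21, was at 50.6 FPKM in CON, well above TCF21. EGR1, whose zinc fingers resemble those of WT1, rose in GA vs. CON (log2FC 0.66, adjusted p = 0.0123, limma), a call lost with the GC covariate (log2FC 0.60 with SE 0.14, adjusted p = 0.421) or without CON1, GA1 or GA3 (adjusted p up to 0.0540), and was lower in GB than in GA (log2FC −0.49, adjusted p = 0.00109, limma).

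**Figure D4:**
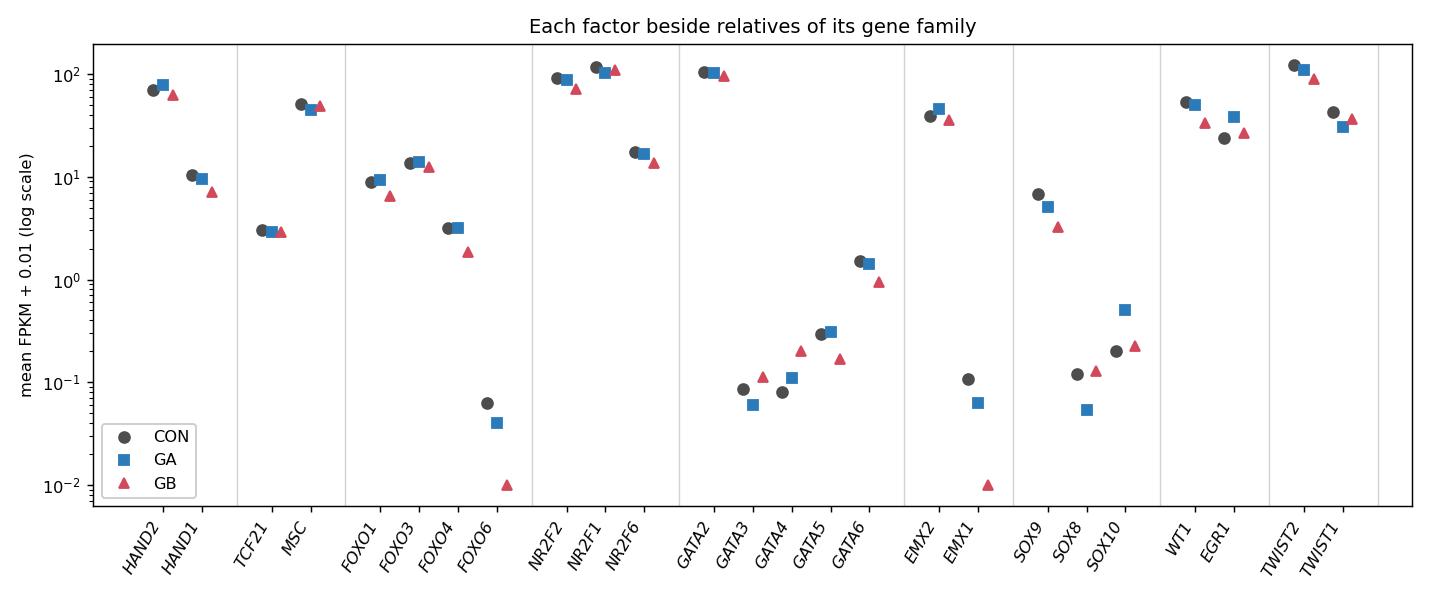
Mean FPKM plus 0.01 (vertical axis, log scale) of each factor and of relatives from its gene family in CON (circles), GA (squares) and GB (triangles), with grey lines between families. NR2F1 lies above NR2F2 and FOXO3 above FOXO1, while GATA3, GATA4, GATA5, EMX1, SOX8 and SOX10 have means over the 9 libraries under 0.5 FPKM.

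The bHLH factors HAND2, TWIST1, TWIST2 and TCF21 bind DNA as dimers with E proteins (TCF3, TCF4 and TCF12), and ID proteins hold E proteins away from DNA. All 7 genes were tested. TCF12 was the highest of the E proteins at 54.5 FPKM in CON, and TCF3 fell slightly in GB, by 0.21 on the log2 scale against CON (adjusted p = 0.0229, limma) and by 0.22 against GA (adjusted p = 0.0242, limma), both calls being lost with several single libraries left out (adjusted p up to 0.0826), that against CON also with the GC covariate (log2FC −0.26, adjusted p = 0.199) and that against GA with median-of-ratios scaling (log2FC −0.14, adjusted p = 0.0836). ID3, at a mean of 1000 FPKM over the 9 libraries, had the highest level of the 7. ID2 was at 277, 311 and 326 FPKM in CON, 297, 309 and 329 in GA and 196, 218 and 233 in GB. GB was thus below both groups, with a log2FC of −0.50 (SE 0.078, adjusted p = 0.0012, limma) against CON and −0.53 (SE 0.078, adjusted p = 0.000948, limma) against GA. ID4 was a DEG in GB vs. GA (log2FC 1.62, adjusted p = 0.0357, limma), with widely spread values of 53.5, 40.9 and 28.4 FPKM in CON, 12.8, 10.7 and 7.90 in GA and 23.6, 17.7 and 82.6 in GB. GA lay below both groups, GB overlapped with CON, and the log2FC was −0.27 in GB vs. CON (adjusted p = 0.708, limma) and −1.90 in GA vs. CON (adjusted p = 0.113, limma). In GB vs. GA the adjusted p passed 0.05 without GA1, GA2 or GA3 (up to 0.114) and with the replicate block (0.0598). The ID4 value rested largely on GB3, without which the log2FC was 0.96 (adjusted p = 0.0378, limma), under the fold threshold.

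Other factors of the mesenchymal state also changed in GB, most of them downward. Of 10 tested genes of that list, 5 fell and 1 rose against CON, and 5 fell and 2 rose against GA, with a median log2FC of −0.32 and −0.37. Over all tested genes, 17.3% fell and 16.2% rose against CON (median −0.016), and 19.2% fell and 9.87% rose against GA (median −0.075). ZEB1, a repressor of E-cadherin, was at 23.0, 21.8 and 21.5 FPKM in CON, 20.7, 20.1 and 19.8 in GA and 13.2, 11.4 and 11.8 in GB, the largest fall of the list (log2FC −0.84, SE 0.067 against CON, adjusted p = 1.53e-05, limma). SNAI2, a repressor of the same target, fell from 125, 127 and 124 FPKM in CON to 85.0, 83.8 and 88.7 in GB (log2FC −0.54, adjusted p = 1.93e-05, limma). PRRX1, the most abundant of the list at 452 FPKM, PRRX2 and TCF7L2 also fell in both comparisons, by 0.15 to 0.43 on the log2 scale. Against GA, PRRX1 was lost with median-of-ratios scaling (log2FC −0.08, adjusted p = 0.118), and PRRX2 with that scaling (adjusted p = 0.0504) and without GA2, GA3, GB1 or GB2 (adjusted p up to 0.0684). TBX18 rose in both (log2FC 0.36 and 0.33), and SNAI1 rose against GA (0.43) and was at 0.22 against CON (adjusted p = 0.0998, limma). With the GC covariate 3 genes of the list fell against CON, and 0 with the replicate number added, where ZEB1 was at −0.76 (adjusted p = 0.0525) and SNAI2 at −0.50 (adjusted p = 0.0666), while ZEB1 and SNAI2 stayed under the threshold against GA in all 12 alternative settings and with each library left out.

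Many fibroblast markers fell in GB as well. Of 19 tested, 11 fell and 1 rose in GB vs. CON, and 12 fell and 1 rose in GB vs. GA, with medians of −0.22 and −0.17, beside the 17.3% and 19.2% of all tested genes that fell and their medians of −0.016 and −0.075. With median-of-ratios scaling 8 fell against GA, and VIM and FN1, each at −0.17 before, were at −0.10 (adjusted p = 0.198 and 0.165). COL3A1 was at 386 FPKM in CON and 297 in GB (log2FC −0.38, adjusted p = 0.000277, limma), FAP fell by 0.67 on the log2 scale, and PDGFRA, a receptor typical of fibroblasts, rose (log2FC 0.38, adjusted p = 0.000415, limma). With the GC covariate 6 fell and 1 rose against CON, and with the replicate number added 1 fell and 0 rose. Of 8 tested smooth muscle and pericyte genes, 5 fell against CON and 4 against GA, with DES (log2FC −0.61) and CNN1 (−0.55) among them. Of the immune list, CD163, a scavenger receptor, was a DEG in both comparisons (log2FC 1.79 and 2.03), while CD68 and CD14 did not pass in any comparison. Whether a shift in the make-up of the cultures had a part in the falls of the lineage factors was not tested.

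Genes placed around HAND2 in the uterus are the hormone receptors above it and the fibroblast growth factors below it. PGR, the progesterone receptor, was at 11.2, 11.7 and 11.2 FPKM in CON, 14.3, 15.1 and 16.6 in GA and 23.3, 22 and 25.8 in GB, so that the 3 groups did not overlap. Its log2FC was 1.03 (SE 0.078, adjusted p = 1.18e-05, limma) in GB vs. CON, where it was a DEG, and 0.61 (adjusted p = 0.000447, limma) in GB vs. GA. The fold threshold of 1 was no longer reached with a pseudocount of 1, after quantile normalization, with the GC covariate or without GB3 (0.95 to 1.00), and the adjusted p stayed under 0.05 in each. ESR1, the estrogen receptor, was at 8.14 FPKM in CON and passed in no comparison. Of 11 tested genes of this list, 1 rose and 2 fell against CON, where 16.2% of all tested genes rose and 17.3% fell, and 1 rose and 4 fell against GA, where 9.87% rose and 19.2% fell. FGF2, the most abundant, was at 373, 338 and 356 FPKM in CON, 355, 319 and 420 in GA and 211, 216 and 225 in GB (log2FC −0.71, adjusted p = 0.000314, limma, against CON and −0.74, adjusted p = 0.000293, limma, against GA). FGF7 fell as well, by 0.37 and 0.42 on the log2 scale. FGF1 was a DEG against GA (log2FC −2.03, adjusted p = 0.0186, limma) but low, at 2.97, 0.880 and 2.90 FPKM in GA and 0, 0 and 0.450 in GB, and the call was lost without GA1, GA3, GB1 or GB2 (adjusted p up to 0.0699). FGF9 was under the filter.

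Around NR2F2 lies the hedgehog relay, in which epithelial IHH acts through PTCH1, SMO and GLI proteins on the stroma. IHH itself was under the filter and was listed at 0 in 6 libraries. PTCH1 was at 4.91 FPKM in CON and passed in no comparison. GLI1, a readout of hedgehog signaling, was at 2.26, 2.52 and 2.64 FPKM in CON, 1.98, 2.30 and 1.73 in GA and 0.930, 1.26 and 0.980 in GB (log2FC −0.94, SE 0.15, adjusted p = 0.00142, limma, against CON and −0.68, adjusted p = 0.00851, limma, against GA). BMP4 rose to 86.7, 80.8 and 85.6 FPKM in GB from 56.2, 47.0 and 57.4 in CON (log2FC 0.66, adjusted p = 0.000272, limma), a call lost with the GC covariate (adjusted p = 0.0680). BMP2 and WNT4, which act after NR2F2 in decidual cells, did not pass in any comparison, and GREM1, the most abundant of the list at 650 FPKM, had a log2FC of 0.01 against CON. In all, 2 of 11 tested genes rose and 2 fell against CON, and 2 rose and 3 fell against GA, shares near the 16.2% and 17.3% of all tested genes that rose and fell against CON, and beside 9.87% and 19.2% against GA. The falls of GLI1 and NR2F2 against CON were both lost with the GC covariate (adjusted p = 0.115 and 0.0753), with a log2FC of −0.85 for GLI1 and −0.40 for NR2F2 and SEs of 0.30 and 0.12, beside 0.15 and 0.062 without it.

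Of 13 tested genes that FOXO factors are known to activate, 3 rose and 2 fell in GB vs. CON, where 16.2% and 17.3% of all tested genes did, and 2 rose and 2 fell in GB vs. GA, where 9.87% and 19.2% did. The medians were 0.01 and −0.04, beside −0.016 and −0.075 over all tested genes. BCL6 (log2FC −0.33) and INSR (−0.39) fell and TXNIP (0.42) and KLF9 (0.59) rose against CON. All 4 calls were lost with the GC covariate, with a log2FC of −0.43 for BCL6 (adjusted p = 0.0800), −0.23 for INSR (adjusted p = 0.468), 0.13 for TXNIP (adjusted p = 0.598) and 0.14 for KLF9 (adjusted p = 0.775), and that of KLF9 also without CON1 or GB3 (adjusted p up to 0.0568), while without CON2 it lay at the threshold. CITED2 was the most abundant at 199 FPKM over the 9 libraries. IGFBP1, the classic FOXO1 target of human decidual cells, was under the filter. PRL was listed at 0, 0.21 and 0 FPKM in CON, where the GB libraries held 0.990, 1.64 and 2.12, and was a DEG in that comparison (log2FC 1.85, adjusted p = 0.00812, limma), a call lost with the GC covariate (log2FC 1.49, SE 0.84, adjusted p = 0.306). Of 14 decidual differentiation factors 12 were tested, of which 1 was higher and 2 lower against CON and 2 higher and 2 lower against GA, again beside those shares. HOXA10, the most abundant at 164 FPKM, passed in no comparison, and FOSL2 fell in both (log2FC −0.36 and −0.45). In GA vs. CON 1 of the 12 passed, CEBPB (log2FC −0.875, adjusted p = 0.0392, limma), where 0.207% of all tested genes were lower. CEBPB was also lower in GB vs. CON (−0.43, adjusted p = 0.0424, limma) and higher in GB vs. GA (0.45, adjusted p = 0.0393, limma). Each CEBPB call was lost with the GC covariate and with several single libraries left out (adjusted p up to 0.156). Of the genes linked to SOX9 in cartilage and stem cells, 5 of 10 were under the filter, including COL2A1, ACAN and LGR5. PROM1 was the highest at 2.36 FPKM, and 0 of the 5 tested passed in any comparison, with limma, with 0 also at an unadjusted p under 0.05.

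The genes whose pattern over the 9 libraries was most like each of the 5 factors with a difference among the 3 groups (moderated F test of limma, adjusted p 0.000218 to 0.0250) were found by Pearson's r of log2(FPKM + 0.5). These r values are a description, since the 9 points share the step between GB and the other groups and each was the highest of many genes. HAND2 was followed most closely by the collagen genes COL5A1 (r = 0.988) and COL4A2 (0.979) and by SEC14L1 (0.986). For WT1 they were EPHB4 (0.991), SUN2 (0.989) and MEX3D (0.986), and for NR2F2 HDAC6 (0.979), SGMS2 (0.978) and MEF2D (0.978). For SOX9 they were SPEG (0.985), PDLIM4 (0.981) and the WNT5A receptor ROR2 (0.981), and for FOXO1 they included PGM3 (0.974) and BRSK1 (0.967).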

How the data were processed

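Total RNA of 9 dishes of BEND was made into poly(A)-selected directional libraries. Per the labels and methods, reads were trimmed with fastp 0.21.0, freed of rRNA with Bowtie2, aligned with HISAT2 2.2.1 to ARS-UCD1.2 and counted per gene with RSEM 1.3.3. The authors deposited FPKM for each gene, rounded to 2 decimals, with 1 column for each dish. No read counts come with them, so the precision of low values is unknown. The sum of a library was 1395622 to 1442723 FPKM. Not given in the sources used here are the annotation release and whether counting used strand.

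From these values log2(FPKM + 0.5) was fitted in R 4.3.3 with limma 3.58.1 (3 group means, variance trend, mean FPKM of at least 0.5), and the procedure was tested on simulated data. Tables and plots were made with Python 3.11.15 and matplotlib 3.10.9. The 10 factors, the lists and the tests were chosen with earlier results of these data known. Named genes are the 10 factors, the DEGs and most abundant gene of each list, relatives of the factors, and the 3 genes most like each factor that differed among groups. Other list genes, such as COL3A1, FGF7, GLI1, BMP4 or ZEB1, were named after their values were seen. Sequences and coordinates were not used here. The results of 2 genes are not reported here.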

Additional observations from a re-analysis of the deposited data

How the results depend on the processing

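The counts of factors past each threshold in the 3 comparisons were recomputed in 12 other settings (pseudocount 1 or 0.1, a filter at 1 FPKM or none, TPM, median-of-ratios or quantile scaling, no variance trend, a fit without the third group, a block on the replicate number, library GC content as a covariate, and block and covariate together) and with each of the 9 libraries left out. The number of factors that fell in GB vs. CON was 2 with the GC covariate and 0 with the covariate and the replicate block, and 3 to 6 with 1 library left out. The number of DEGs in GB vs. CON was 1, SOX9, with a pseudocount of 0.1 or the GC covariate, and 0 to 1 with 1 library left out. GC content was higher in each CON library than in any treated one, so it is confounded with treatment in the comparisons with CON. The cause was not tested. All other counts were within 1.5 times those given, 4 to 6 in GB vs. GA with 1 library left out. The group that lost a library kept 2.

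The replicate block left 5 factors against CON and 5 against GA. Deviations from the group mean correlated only weakly between same-numbered libraries (r from −0.031 to 0.077 across genes, beside −0.068 to 0.056 for other numbers). Still, 6 of 9 libraries correlated best with their own number, so a weak pairing cannot be dismissed. The main fit did not pair the libraries by number.

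Of the 210 values of single factors in each comparison, the sign turned in 7 for GB against CON, 5 for GB against GA and 10 for GA against CON, all for estimates that were not called, and the cause was not tested. With the GC covariate, HAND2 in GA vs. CON was −0.046, TCF21 in GB vs. GA −0.023 and TWIST1 in GB vs. CON 0.215. With the covariate and the block, GA vs. CON was −0.011 for EMX2, −0.133 for HAND2, 0.138 for TWIST2 and 0.140 for WT1, TCF21 in GB vs. GA was −0.020 and TWIST1 in GB vs. CON 0.086. TCF21 in GB vs. CON was 0.003 with median-of-ratios scaling. With 1 library left out, the ranges were −0.035 to 0.008 for GATA2 in GA vs. CON, −0.283 to 0.231, −0.265 to 0.194 and −0.241 to 0.169 for TCF21 (GA against CON, GB against CON, then GB against GA), and −0.389 to 0.007 for TWIST1 in GB vs. CON. Among list genes called in GB vs. CON, ACTA2 turned to 0.049 with the covariate and PDGFRB to 0.019 with the covariate and the block.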
